A study of Danio rerio with 2 samples.

Results

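The transcripts described here are *ddit4*, *tsc1b*, *tsc2* and *rheb*, the 4 of 84 pathway genes on a zebrafish mTOR signaling PCR array whose symbols begin with ddit4, tsc1, tsc2 or rheb. They code for the REDD1 protein, subunits of the TSC complex and a Rheb-like GTPase, which the array lists as *rheb*. The array was run on whole larvae at 10 dpf, from wild-type (WT) AB/TU zebrafish and from NOD1-deficient *NOD1-1IS*-/- zebrafish, which are homozygous for an insertion of 1 base pair made with Cas9 and a gRNA in the gene of the pattern recognition receptor NOD1. The labels name no treatment of either group. Each genotype had 3 biological replicates, and each replicate was a pool of 200 to 250 larvae. The mutant group is a single insertion allele kept as a line, and whether the WT larvae were siblings of that line is not given in the sources used here, so the allele and other differences between the lines cannot be told apart. The authors also report delayed hatching and lower larval survival in this line. Whether these bear on the values of the pools was not tested. Neither *nod1* nor any marker list of a larval tissue is on the array, so the genotype of a pool was not checked by its own transcript.

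mTORC1 is a kinase complex that promotes protein synthesis and cell growth when nutrients and growth factors are at hand. The small GTPase Rheb activates mTORC1 in its GTP-bound form. The TSC complex, in which TSC2 is the GTPase-activating protein and TSC1 its stabilising partner, turns Rheb off. In mammals, REDD1, the product of *DDIT4*, is a short-lived protein that is induced by hypoxia, DNA damage, glucocorticoids and energy stress and that lowers mTORC1 activity through the TSC complex. REDD1 and the TSC proteins are thus brakes on mTORC1, and Rheb is the switch they act on.

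Expression was read as the threshold cycle (Ct) of 1 well per gene and replicate. A Ct that is higher by 1 cycle stands for 2 times less template if the product doubles in every cycle. ΔCt was obtained by subtracting the average Ct of the reference genes *hprt1*, *nono* and *rpl13a* from that of a gene, so a higher ΔCt is a lower level. All 534 gene wells had a Ct, from 14.6 to 29.0 cycles. The positive PCR control, a fixed template, had a mean Ct of 19.70 to 19.71 in the WT replicates and 19.25 to 19.69 in the *NOD1-1IS*-/- replicates, a mean shift of -0.21 cycles, and the mean of the 3 reference genes shifted by -0.30 cycles. The other 24 control wells gave no Ct. The only control wells with a value are thus those of the PCR step, and none reads the reverse transcription.

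The transcript *ddit4* (NM_200107), coding for REDD1, fell in *NOD1-1IS*-/- larvae, and no other of the 4 genes passed the test. Its raw Ct was 20.56, 19.85 and 20.21 cycles in WT replicates 1, 2 and 3. In *NOD1-1IS*-/- replicates 1, 2 and 3 it was 21.77, 21.41 and 22.16 cycles. Every *NOD1-1IS*-/- pool thus crossed the threshold later than every WT pool, before any normalization. The positive control and the 3 reference genes used shifted in the other direction. The reference genes of the plate that were left out, *acta1b* and *b2m*, had a raw Ct later by 0.70 and 0.16 cycles on average in *NOD1-1IS*-/-, with overlap. The ΔCt of *ddit4* was 0.87, 0.35 and 0.48 cycles in the WT replicates and 2.50, 2.004 and 2.81 cycles in the *NOD1-1IS*-/- replicates. On a linear scale with the WT mean of ΔCt set to 1, the *NOD1-1IS*-/- pools held 0.261, 0.369 and 0.211, and the WT pools 0.811, 1.16 and 1.06. The highest mutant pool was therefore well under the lowest WT pool. Log2 fold change of *ddit4* was -1.87 with a standard error (SE) of 0.20, and limma gave an adjusted p of 9.89e-05 (Benjamini-Hochberg over 84 genes). This is 3.66-fold lower expression with a 95% confidence interval of 2.68 to 5.01. In bulk larvae, fewer cells that express *ddit4* and less *ddit4* RNA per cell cannot be told apart.

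Of the 4 genes, 1 was lower and 0 were higher with an adjusted p under 0.05, whereas 16 of all 84 pathway genes (19.0%) were lower, and 19 (22.6%) were called in either direction. The 3 *NOD1-1IS*-/- replicates lay entirely below the WT replicates for 1 of the 4 genes, and for 28.6% of the 84. A share of 1 in 4 lies near these backgrounds and is no result about the 4 genes as a set. With all 5 reference genes of the plate, 7 of the 84 genes were lower and 19 higher, against 16 and 3 here. The decrease of *ddit4* was the third largest of the 84, and relative to the median log2 fold change of the pathway genes, which was -0.11, it was -1.76.

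**Figure D1:**
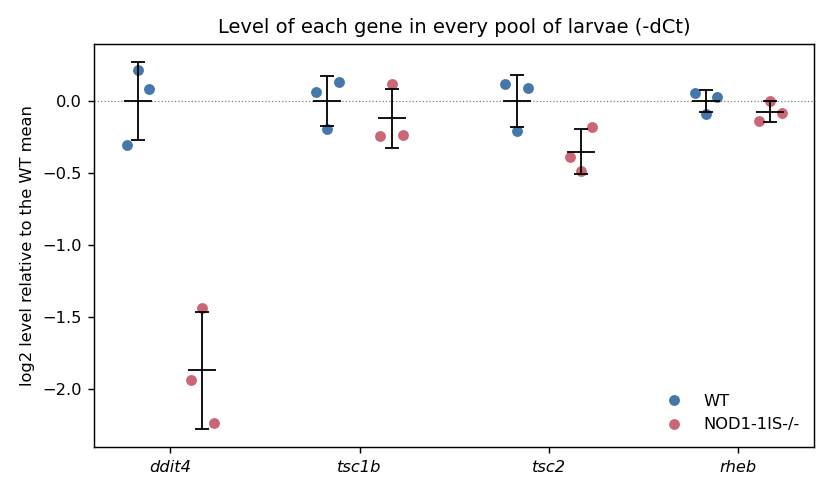
Level of *ddit4*, *tsc1b*, *tsc2* and *rheb* in each replicate, as −ΔCt relative to the WT mean of the gene (log2 scale). Points are the 3 pools of each genotype, horizontal bars the means and vertical bars the SD. The *NOD1-1IS*-/- pools of *ddit4* lie apart from the WT pools around a mean of -1.87, whereas the genotypes overlap for the other 3 genes.

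The pools also differed among themselves more for *ddit4* than for most genes. Its SD of ΔCt was 0.27 cycles in WT and 0.41 cycles in *NOD1-1IS*-/-, against medians of 0.13 and 0.14 cycles over the 84 genes. That made it the fifth most variable gene among the WT replicates and the third most variable among the mutant replicates. The distance between the genotypes was still several times these SDs. When any single replicate was omitted, *ddit4* stayed between -2.09 and -1.69 on the log2 scale, with an adjusted p (limma) of 0.00495 or less.

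Of the TSC complex, the array read *tsc2* and *tsc1b*. For *tsc2* (XM_690820), coding for the GTPase-activating subunit tuberin, ΔCt was 2.59, 2.91 and 2.61 cycles in the WT replicates and 3.09, 3.19 and 2.89 cycles in the *NOD1-1IS*-/- replicates. The genotypes overlapped because *NOD1-1IS*-/- replicate 3 had a lower ΔCt than WT replicate 2. Log2 fold change was -0.35 (SE 0.13, 95% confidence interval -0.64 to -0.06), and limma gave an unadjusted p of 0.0216 and an adjusted p of 0.0755, so *tsc2* missed the threshold after adjustment. The raw Ct of *tsc2* was 22.35 ± 0.07 cycles (SD, n = 3) in WT against 22.40 ± 0.18 cycles (SD, n = 3) in *NOD1-1IS*-/-, a shift of only 0.05 cycles, and the rest of the difference in ΔCt is the shift of the reference genes. The side of the threshold on which *tsc2* lay depended on *NOD1-1IS*-/- replicate 3, on the reference and on the prior of the test. Without that replicate the log2 fold change was -0.44 with an adjusted p of 0.0415 from limma. With all replicates, *tsc2* was also called lower with *nono* alone and with a trended, robust prior. Over all alternatives that adjusted p ranged from 0.00340 to 0.785.

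For *tsc1b* (NM_001282392), a gene for hamartin, the partner that stabilises TSC2, ΔCt was 0.68, 0.94 and 0.61 cycles in WT and 0.99, 0.63 and 0.98 cycles in *NOD1-1IS*-/-. The genotypes were interleaved, with WT replicate 2 near the 2 highest mutant pools and *NOD1-1IS*-/- replicate 2 near the lowest WT pools. Log2 fold change was -0.12 (SE 0.14), limma gave an adjusted p of 0.566, and the 95% confidence interval ran from 1.34-fold lower to 1.14-fold higher expression. The raw Ct of *tsc1b* was lower in every *NOD1-1IS*-/- pool than in every WT pool, by 0.18 cycles on average. This is close to the mean shift of -0.21 cycles in the positive control, and whether they are linked was not tested. The second zebrafish gene for this subunit, *tsc1a*, is not among the identifiers on the array.

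The *rheb* row was the steadiest of the 4. The array lists it as *rheb* with the identifier NM_001076748, which the RefSeq table of the assembly GRCz12tu gives to *rhebl1*, a Rheb-like paralog of which *rheb* is an older name. The gene now called *rheb* has another identifier that is not on the array, so the values belong to the transcript of NM_001076748. Its ΔCt was -0.32, -0.18 and -0.29 cycles in WT and -0.12, -0.27 and -0.18 cycles in *NOD1-1IS*-/-. These ranges overlap over most of their width. Log2 fold change was -0.07 (SE 0.10), and limma gave an adjusted p of 0.657, with a 95% confidence interval from 1.23-fold lower to 1.11-fold higher. Its raw Ct was lower in all 3 *NOD1-1IS*-/- pools, at 19.15 ± 0.02 cycles (SD, n = 3) against 19.38 ± 0.06 cycles (SD, n = 3). This is a shift of -0.23 cycles, near the mean shift of -0.21 cycles in the positive control. That control spread from 19.25 to 19.69 cycles over the mutant replicates, and whether it accounts for the shift of *rheb* was not tested.

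The order of the genes on the plate gives a view that needs no reference. Counted from the earliest Ct among the 84 pathway genes, *ddit4* held places 15, 7 and 10 in the WT replicates and places 31, 26 and 34 in the *NOD1-1IS*-/- replicates. *ddit4* thus moved back in the order in all 3 mutant pools. The *rheb* row held places 4, 5 and 4 in either genotype, *tsc1b* places 11, 15 and 12 against 13, 10 and 13, and *tsc2* places 33, 37 and 35 against 38, 39 and 35. These places depend on the primers of each well and do not rank the amounts of the transcripts.

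The ratio of *ddit4* to *tsc2*, *tsc1b* and *rheb* was compared within each replicate, where the reference mean cancels. The Ct of *ddit4* minus that of *tsc2* was -1.72, -2.57 and -2.13 cycles in WT and -0.59, -1.19 and -0.08 cycles in *NOD1-1IS*-/-. Minus that of *tsc1b* it was 0.19, -0.59 and -0.13 cycles in WT and 1.52, 1.38 and 1.83 cycles in *NOD1-1IS*-/-. Minus that of *rheb* it was 1.19, 0.52 and 0.77 cycles in WT and 2.63, 2.27 and 2.99 cycles in *NOD1-1IS*-/-. In all 3 comparisons no mutant pool overlapped a WT pool. The ratio of *ddit4* to *tsc2* was 2.87-fold lower in the mutant, that to *tsc1b* 3.37-fold lower and that to *rheb* 3.48-fold lower, each with an exact permutation p of 0.1 (two-sided, n = 3 against 3, adjusted p = 0.1 over the 3 comparisons). A p of 0.1 is the smallest that 3 replicates against 3 allow, so this test could not pass 0.05.

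Among *tsc1b*, *tsc2* and *rheb* themselves the ratios were closer. The Ct of *tsc1b* minus that of *tsc2* was -1.96 ± 0.05 cycles (SD, n = 3) in WT and -2.20 ± 0.34 cycles (SD, n = 3) in *NOD1-1IS*-/-. That of *tsc1b* minus *rheb* was 1.01 ± 0.11 (SD, n = 3) and 1.05 ± 0.14 (SD, n = 3), and that of *tsc2* minus *rheb* was 2.97 ± 0.11 (SD, n = 3) and 3.25 ± 0.20 (SD, n = 3). The genotypes overlapped in each of these 3 pairs.

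**Figure D2:**
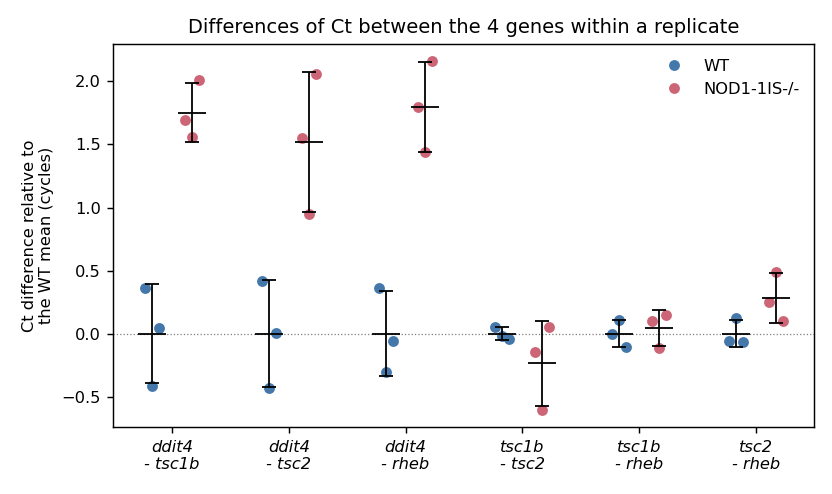
Ct of the first gene minus Ct of the second in the same replicate, relative to the WT mean of the pair (cycles), which does not depend on the reference genes. Points are the 3 pools of each genotype, horizontal bars the means and vertical bars the SD. The pairs with *ddit4* differ between the genotypes by 1.52 to 1.80 cycles without overlap, and the other 3 pairs overlap.

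The same comparison was extended to every other gene with a value. It reuses the same Ct values of *ddit4*, as do its places in the order and the ratios above. These views are thus not independent of each other or of the fold change. Against 85 of the 88 others, reference genes included, *ddit4* was lower in all 3 *NOD1-1IS*-/- pools than in all 3 WT pools. The exceptions were *akt2l* and *rragd*, against which it was higher, and *rps6ka2*, against which the genotypes overlapped. By this count *ddit4* ranked 3 among the 84 pathway genes, for which the median was 11. The counts were 22 for *tsc2*, 11 for *rheb* and 7 for *tsc1b*, and *rheb* was higher against 20 genes and *tsc1b* against 13. *tsc1b* and *rheb* thus sat in the middle of the array, whereas *ddit4* stood at its lower end.

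The size of the change in *ddit4* depended on the reference, and its direction and call did not. Over the other references tried, the log2 fold change lay between -2.08 with *nono* alone and -0.87 with *acta1b* alone, and *ddit4* was lower with an adjusted p of 0.0394 or less from limma in each. With *nono*, *b2m* or *acta1b* alone, limma set 1 common SE for all genes, so those p-values do not use the spread of *ddit4* itself. The gene *acta1b*, a skeletal muscle actin, was itself lower in *NOD1-1IS*-/-, with a ΔCt of -3.29 ± 0.30 cycles (SD, n = 3) in WT and -2.29 ± 0.55 cycles (SD, n = 3) in *NOD1-1IS*-/-, and the genotypes did not overlap. The other reference gene left out, *b2m*, for beta-2 microglobulin, was also lower without overlap, with a ΔCt of 3.24 ± 0.07 cycles (SD, n = 3) in WT and 3.70 ± 0.19 cycles (SD, n = 3) in *NOD1-1IS*-/-. Among the reference genes used, *nono* was higher in *NOD1-1IS*-/- relative to their mean without overlap, with a ΔCt shift of -0.20 cycles. *hprt1* and *rpl13a* shifted the other way without overlap, by 0.11 and 0.10 cycles. Each of the 3 is measured against a mean that includes it, so their shifts must cancel. A positive shift of *hprt1* and *rpl13a* is therefore no evidence that these transcripts fell. The raw Ct of *nono* shifted by -0.51 cycles, against -0.19 for *hprt1* and -0.21 for *rpl13a*. With *hprt1* and *rpl13a* only, *ddit4* was at -1.77 on the log2 scale, and 10 genes were lower, against 16. The Ct of *ddit4* minus that of *acta1b* was 3.82, 3.87 and 3.89 cycles in WT and 4.24, 4.85 and 5.09 cycles in *NOD1-1IS*-/-, so *ddit4* was 1.82-fold lower even relative to *acta1b*, without overlap. The other 3 genes changed sign with the reference. With all 5 reference genes of the plate the log2 fold change was -0.06 for *tsc2*, 0.17 for *tsc1b* and 0.22 for *rheb*, and none of them passed the threshold. With *acta1b* alone, *tsc1b* and *rheb* were called higher, at 0.89 and 0.93 (limma, adjusted p = 0.0385 and 0.0329), and *rheb* was also called higher with *b2m* alone, at 0.39 (adjusted p = 0.0381). Over all alternatives the adjusted p ranged from 0.0385 to 0.988 for *tsc1b* and from 0.0329 to 0.896 for *rheb*.

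**Figure D3:**
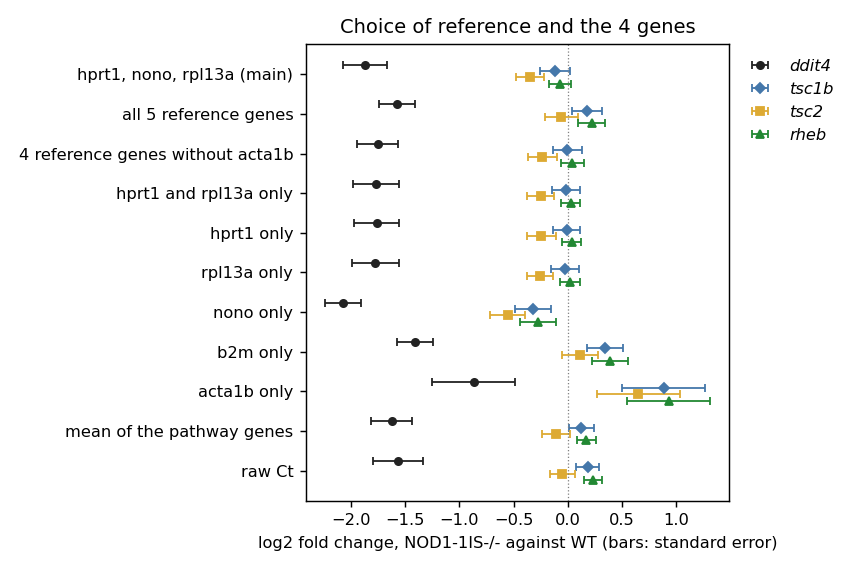
Log2 fold change of the 4 genes (horizontal axis, bars are the standard error of limma) under each choice of reference (rows). *ddit4* is below 0 in every row, from -2.08 to -0.87, whereas *tsc1b*, *tsc2* and *rheb* lie on either side of 0, up to 0.89, 0.65 and 0.93 with *acta1b* alone.

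The genes whose profile was most like that of *ddit4* were found by the root mean square difference of −ΔCt over the 6 replicates, each gene taken relative to its own WT mean. The closest was *rragd* (NM_001099424), which codes for a Rag GTPase of amino acid sensing, at 0.353 cycles, followed by *rps6ka2* (XM_694860), an RSK kinase, at 0.576 cycles and *irs1* (XM_005157774), an insulin receptor substrate, at 0.775 cycles. The median of the other pathway genes was 1.27 cycles, and *tsc2*, *tsc1b* and *rheb* were at 1.15, 1.27 and 1.30 cycles. The reference mean cancels in these differences. Taken about the mean of each genotype, which leaves out the change between the genotypes, the difference from *ddit4* was 0.101 cycles for *rragd*, the smallest of the pathway genes. It was 0.380 cycles for *rps6ka2* and 0.360 cycles for *irs1*, both above the median of 0.279. These 2 genes fell less than *ddit4*, with log2 fold changes of -1.26 and -0.90 against -1.87. Within a genotype they held places 75 and 71, counted from the pathway gene closest to *ddit4*. Their places after *rragd* thus rest on the change between the genotypes and not on how the pools differed within one. The ΔCt of *rragd* was 6.996, 6.73 and 6.78 cycles in WT and 9.12, 8.85 and 9.58 cycles in *NOD1-1IS*-/-. In both *ddit4* and *rragd*, replicate 1 had the highest ΔCt of the WT pools, replicate 2 the lowest ΔCt of either genotype, and replicate 3 the highest of the mutant pools. The decrease of *rragd* was the larger of the 2, at -2.35 on the log2 scale (limma, adjusted p = 4.08e-06), and the ratio of *rragd* to *ddit4* was 1.39-fold lower in *NOD1-1IS*-/- without overlap.

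**Figure D4:**
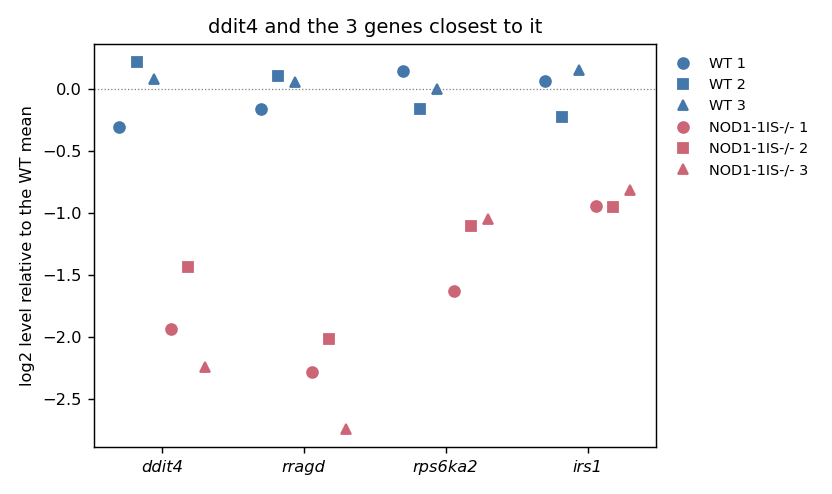
Level of *ddit4* and of the 3 genes closest to it in each replicate, as −ΔCt relative to the WT mean of the gene (log2 scale), with circles, squares and triangles for replicates 1, 2 and 3. The order of the pools is the same for *ddit4* and *rragd* in either genotype, and *rps6ka2* and *irs1* fell less, by 1.26 and 0.90 on the log2 scale.

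The other genes on the array around this switch were read in 5 lists. The list of kinases that signal to the TSC complex directly or through other kinases, with their subunits and partners, held 20 genes. Of these, 7 fell and 0 rose, where 19.0% of all 84 genes fell. Their median log2 fold change was -0.11, equal to that of all 84 genes. With all 5 reference genes the split of this list was 3 lower and 5 higher. Akt and RSK kinases inhibit TSC2 in mammals, and among them *akt2l* fell, with a log2 fold change of -6.30, as did *rps6ka2*, at -1.26, and *akt2*, at -0.40. AMPK, which activates TSC2 in mammals, was represented among these by its subunit genes *prkab2*, at -0.81, and *prkaa2*, at -0.51. The gene *ikbkb*, for the kinase IKKβ that inhibits TSC1 in mammals, was at -0.50. The adjusted p of the 7 genes ranged from 8.40e-09 to 0.0383 (limma). The genes that fell thus included both kinases that inhibit the TSC complex and subunits of one that activates it. The other 13 genes of the list were not called, among them another RSK gene and further AMPK subunit genes. The highest log2 fold change in the list was 0.22.

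Of the genes tied to hypoxia, which induces REDD1 in mammals, 0 of 4 passed the test, where 22.6% of all 84 genes did, and 1 was higher with all 5 reference genes. The log2 fold change of *hif1ab*, coding for a hypoxia-inducible factor, was -0.26 (limma, adjusted p = 0.206), and that of *vegfaa*, a target of such factors, was 0.23 (limma, adjusted p = 0.220). Neither transcript was thus called in either direction.

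Downstream of Rheb, 1 of the 5 core genes of mTORC1 fell and 1 rose, where 22.6% of all 84 genes were called in either direction. The gene *deptor*, for an inhibitory subunit, fell by 0.37 on the log2 scale (limma, adjusted p = 0.0383), and *mlst8*, for a subunit shared by the mTOR complexes, rose by 0.37 (limma, adjusted p = 0.0362). With all 5 reference genes 0 of the 5 were lower and 2 were higher. Of the 9 genes for outputs of mTORC1, 0 passed the test, against the same 22.6%, and 2 were higher with all 5 reference genes. These are transcript levels, which do not read the activity of mTORC1 or the phosphorylation of its targets. The lowest adjusted p were those of *ulk1b*, an autophagy kinase (0.28 on the log2 scale, adjusted p = 0.0812, limma), and *rps6kb1b*, an S6 kinase (-0.33 on the log2 scale, adjusted p = 0.0994, limma). Of 6 genes for Rag GTPases and for partners of Rheb, 2 fell, *rragd* and the phospholipase D gene *pld2*, the latter with a log2 fold change of -0.63, and its relative *pld1a* rose, at 0.55. With all 5 reference genes 1 of these 6 was lower and 2 were higher. The median log2 fold changes of these lists, -0.05 for the core, -0.14 for the outputs and -0.10 for the last list, lay close to the -0.11 of all 84 genes. All list values move together with the reference. Relative to *acta1b* alone each log2 fold change is higher by 1.005, which turns a fall of less than that into a positive value.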

How the data were processed

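The authors reverse transcribed 1000 ng of total RNA and ran 40 cycles of SYBR Green PCR. The authors deposited raw Ct values by well and, per the file headers, 1 normalized value per gene and genotype, a linear ratio of 2 to the power of −ΔCt, with no spread. Threshold and baseline settings are not given in the sources used here. Another file holds the authors' fold changes between the genotypes and was not used. Wells were joined to symbols by well position. The join and the reference genes were checked against the deposited ratio: those 3 named in the report (*hprt1*, *nono*, *rpl13a*) matched to within 4.00e-07 (log2), whereas the next best of 31 possible sets was off by up to 0.28.

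Genotypes were compared on −ΔCt with limma 3.58.1 (lmFit and eBayes, R 4.3.3), two-sided, over 84 genes, with Benjamini-Hochberg adjustment and a threshold of 0.05. Reference genes were left out of this fit. The fit was run on simulated data with independent errors for each gene and no shift shared by the genes. That run does not bear on the choice of reference. Exact permutation tests used SciPy 1.17.1. No gene was filtered. Array data have no read depth, and 3 pools and 1 well per gene limit the precision. The labels call the pools biological replicates and do not say whether they came from separate matings, so p-values measure the spread between these pools. Genotypes were taken from the sample titles and replicates from column names.

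The 4 genes and the lists were chosen with earlier results of these data known. The genes named are these 4, the reference genes, the 3 genes most like *ddit4*, and in each list those with an adjusted p under 0.05, or else the 2 with the lowest. Of the genes this rule names, 1 is not reported here. Alternatives were other reference genes, raw Ct, leaving out each replicate, a replicate block, and a trend with a robust prior. Of the 4 identifiers, 3 matched the RefSeq table by accession and *tsc2* by symbol. Of the 4 genes, 0 lie on the chromosome of *nod1* in it. The files name no build, so no coordinates are given, and no sequences are shown.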

Additional observations from a re-analysis of the deposited data

How the results depend on the processing

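The call of *ddit4* held in 18 of 18 alternatives, with log2 fold changes from -2.09 to -0.87 and adjusted p from 1.22e-28 to 0.0394 (limma), of which the smallest came from fits with 1 common SE for all genes. Leaving out 1 replicate gave -2.09 to -1.69 for *ddit4*, -0.24 to -0.05 for *tsc1b*, -0.46 to -0.29 for *tsc2* and -0.12 to -0.04 for *rheb*. The differences in Ct of *ddit4* from *tsc1b*, *tsc2* and *rheb* then ranged from 1.55 to 1.94, from 1.25 to 1.80 and from 1.62 to 1.98 cycles.

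The other log2 fold changes turned positive as follows. That of *tsc1b* was 0.17 with all 5 reference genes, 0.89 with *acta1b* alone, 0.35 with *b2m* alone, 0.13 with the mean of the pathway genes and 0.18 on raw Ct. That of *tsc2* was 0.65 with *acta1b* alone and 0.11 with *b2m* alone. It passed the threshold at -0.56 with *nono* alone and at -0.35 with the trend and robust prior (adjusted p = 0.0422 within a range of 0.00340 to 0.785, limma). That of *rheb* was 0.22 with all 5, 0.043 without *acta1b*, 0.029 with *hprt1* and *rpl13a*, 0.93 with *acta1b*, 0.39 with *b2m*, 0.035 with *hprt1*, 0.023 with *rpl13a*, 0.17 with the pathway mean and 0.23 on raw Ct. Another reference shifts all genes by the same amount.

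Over the 84 genes, the counts of lower and higher calls were 16 and 3. They were 7 and 19 with all 5 reference genes, 10 and 5 without *acta1b*, 10 and 4 with *hprt1* and *rpl13a* and with *hprt1* alone, 10 and 5 with *rpl13a*, 29 and 1 with *nono*, 5 and 39 with *b2m*, 3 and 55 with *acta1b*, 9 and 18 with the pathway mean and 7 and 21 on raw Ct. Leaving out 1 replicate gave 10 to 15 lower and 0 to 4 higher genes, the fewest of each without WT replicate 3. There were 1 higher gene without WT replicate 1, WT replicate 2 or *NOD1-1IS*-/- replicate 2.

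Calls in the hypoxia list went from 0 to 1 higher with all 5 reference genes or the pathway mean, 1 lower with *nono* and 3 higher with *acta1b*. For the outputs of mTORC1 they went from 0 to 2 higher with all 5 or the pathway mean, 3 lower with *nono* and 6 higher with *acta1b*. For the mTORC1 core they went from 2 to 1 lower with *nono* and 4 higher with *acta1b*. With *acta1b*, 13 of the genes in the list upstream of TSC were called, 1 lower and 12 higher, against 7 lower. Of the Rag and Rheb partner genes 5 were called, 1 lower and 4 higher, against 2 lower and 1 higher.

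Replicate numbers did not pair the pools. Same-numbered replicates had correlations of deviations of -0.22, 0.09 and -0.05 over 84 genes, and 0 of 6 correlated best with their own number. With the number as a replicate block, *ddit4* stayed at -1.87 and 14 genes were lower and 2 higher.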

Other observations

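The departures of single pools from their genotype mean of ΔCt were alike for *ddit4*, *rragd* and, among the WT pools, *acta1b*. For *ddit4* they were 0.30, -0.22 and -0.09 cycles in WT replicates 1, 2 and 3 and 0.06, -0.43 and 0.37 cycles in the *NOD1-1IS*-/- replicates. For *rragd* they were 0.16, -0.11 and -0.06 cycles in WT and -0.06, -0.33 and 0.39 cycles in *NOD1-1IS*-/-. No pool differed between these 2 genes by more than 0.142 cycles, and their root mean square difference of 0.101 cycles was the smallest of any pathway gene from *ddit4*, with the next at 0.135 and the median at 0.279. For *acta1b* the departures were 0.34, -0.22 and -0.12 cycles in WT and 0.55, -0.56 and 0.01 cycles in *NOD1-1IS*-/-. The match of *acta1b* with *ddit4* was thus close in WT and looser in the mutant pools, where replicate 1 differed by 0.485 cycles. Over the 6 pools the root mean square difference of *acta1b* from *ddit4* was 0.253 cycles, near the median of 0.279 for the pathway genes. These are values of 6 pools, chosen after they were seen, and no test was made.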
